A study of Drosophila melanogaster with 2 samples.

Results

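Drosophila melanogaster has a set of genes named Klp, for kinesin-like protein, each followed by the cytological position of the gene. Of these, 10 were examined: Klp3A, Klp10A, Klp31E, Klp54D, Klp59C, Klp59D, Klp61F, Klp64D, Klp67A and Klp68D. They were found by gene name in the deposited transcript models, and each of the 10 matched 1 row among the 19391 loci of the expression table. Of the 10 genes, 9 had at least 1 FPKM (sequenced fragments scaled to transcript length and to library size) in 1 library, and Klp54D did not.

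The study measured polyadenylated RNA of whole adult flies in 2 libraries, 1 of pooled females and 1 of pooled males, called the female and the male pool here. The flies were 3 to 5 d old, and 200 ng of RNA from each of 192 inbred DGRP lines (Drosophila Genetic Reference Panel) entered the pool of a sex. Both groups thus shared lines and age range and differed by sex. Each sex has 1 library, so no difference below has a replicate check and no test between the sexes was possible. The values describe these pools and not single lines or tissues.

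Kinesins are motor proteins that bind microtubules and use ATP to walk along them or to take them apart. In dividing cells they build and shorten the spindle, move chromosomes and set up the central spindle for cytokinesis. In neurons and ciliated cells they carry cargo along stable microtubules. Fly ovaries and testes both hold dividing and meiotic germ cells, and the testis also builds long sperm tails around a microtubule axoneme.

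The plot of levels gives both values of every Klp gene. In the female pool the order from high to low was Klp10A, Klp3A, Klp67A, Klp61F, Klp68D, Klp64D, Klp31E, Klp54D, Klp59C and Klp59D. In the male pool it was Klp59C, Klp59D, Klp10A, Klp3A, Klp64D, Klp67A, Klp68D, Klp31E, Klp61F and Klp54D. The lowest pair of the female pool was thus the highest pair of the male pool. Neighbours in an order whose approximate 95% counting intervals overlapped were Klp3A and Klp67A, and Klp59C and Klp59D, in the female pool, and Klp64D and Klp67A in the male pool. These intervals rest on fragment numbers estimated from a common step in the low values of the table, and they cover counting error only.

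**Figure D1:**
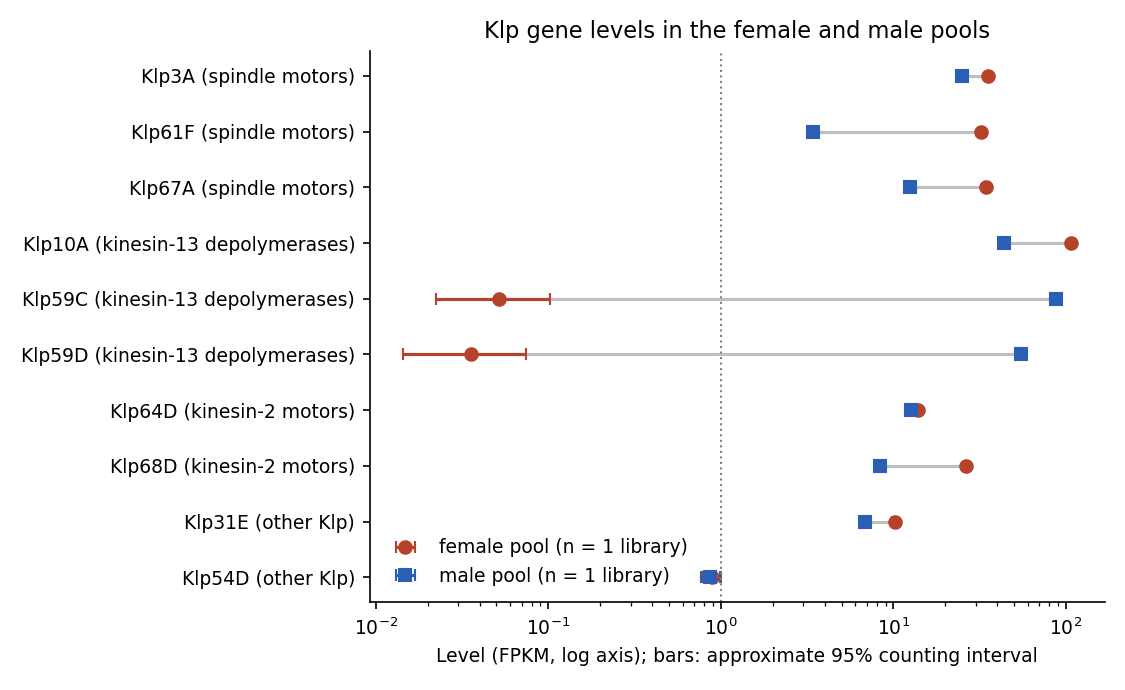
Level of each of the 10 Klp genes in FPKM (log axis) in the female pool (circles) and the male pool (squares), 1 library each, with approximate 95% counting intervals as bars and a dotted line at 1 FPKM. Klp59C and Klp59D lie below 0.1 FPKM in the female pool and above 50 FPKM in the male pool, while Klp64D and Klp54D have nearly coinciding symbols.

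Sex differences are given as log2((female FPKM + 1)/(male FPKM + 1)), a scale that understates the change of low genes, and a gene was called when this log2 ratio reached 1 or −1, that is 2-fold. Of the 9 Klp genes tested, 4 were called higher in the female pool, against 21.5% of all 14108 loci tested. A further 2 were called higher in the male pool, against 40.7% of all loci tested, and 3 were under 2-fold. The median log2 ratio of the 9 genes was 0.52, against −0.58 over all loci tested. When ribosomal protein genes were set to equal medians, all 10 Klp genes passed the minimum and their median was −0.40. Under that scaling 1 of the 10 was called higher in the female pool, against 8.47% of all loci, and 2 in the male pool, against 57.0%. The summed level of all 10 genes was 260 FPKM for females and 256 FPKM for males, a linear ratio of 1.02 that became 1.44 with each library scaled to the same sum and 0.519 with ribosomal protein genes set equal. Shares within a library do not move with that scaling. Kinesin-13 genes made up 41.0% of the sum in females and 72.8% in males, and the spindle motors Klp3A, Klp61F and Klp67A made up 39.3% and 16.0%. The kinesin-2 motors Klp64D and Klp68D made up 15.4% and 8.17%, and Klp31E and Klp54D together 4.28% and 3.02%.

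**Figure D2:**
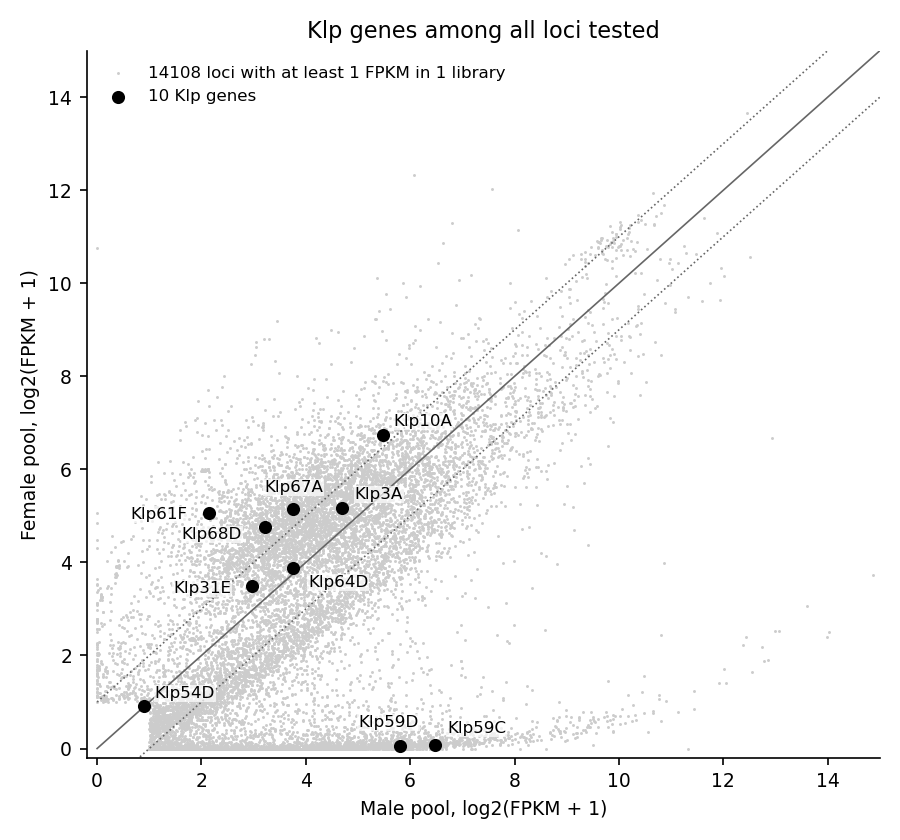
Male (x axis) and female (y axis) level on the log2(FPKM + 1) scale for the 14108 loci with at least 1 FPKM in 1 library (grey) and the 10 Klp genes (black), 1 library per sex, with a solid line of equality and dotted lines at 2-fold. Klp59C and Klp59D lie at the bottom edge among loci nearly silent in the female pool, Klp61F, Klp67A, Klp68D and Klp10A lie above the upper 2-fold line, and the other 4 lie between the lines.

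The kinesin-13 genes held both the highest and the lowest levels of the family. Kinesin-13 proteins do not walk but take microtubules apart from their ends. Klp10A, known for its work at spindle poles and centrosomes, had 106 FPKM in the female pool and 43.6 FPKM in the male pool. It was the highest of all 27 kinesin genes examined in the female pool and the fifth highest in the male pool. Its linear ratio of female to male was 2.44 (approximate 95% counting interval 2.40 to 2.48), and its log2 ratio was 1.27. With ribosomal protein genes set equal the log2 ratio was 0.31, under 2-fold.

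Klp59C, a kinesin-13 gene whose product has been described at kinetochores of dividing cells, had 0.0519 FPKM in the female pool and 87.6 FPKM in the male pool. The female value corresponds to about 8 fragments and the male value to about 13517. The linear ratio of male to female was 1687, with a counting interval from 856 to 3909, and the log2 ratio was −6.40. The width of the interval comes from the few fragments of the female pool.

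Klp59D, the remaining kinesin-13 gene of the fly, had 0.0358 FPKM in the female pool and 54.9 FPKM in the male pool, from about 7 and 10424 fragments. Its linear ratio of male to female was 1534 (counting interval 744 to 3816), and the log2 ratio was −5.75. Of all loci tested, 2.75% had a lower log2 ratio than Klp59C and 4.71% a lower one than Klp59D. On this scale the pair was therefore not at the male extreme of the loci tested. Because 1 FPKM is added to both values, loci near 0 in the female pool are ordered mainly by male level. The linear ratios were not ranked over all loci. Klp59C stood at 1.60 times the level of Klp59D in the male pool.

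The make-up of kinesin-13 RNA thus differed between the pools. Klp10A made up 99.9% of the summed FPKM of the 3 genes in the female pool and 23.4% in the male pool. In the male pool Klp59C made up 47.1% and Klp59D 29.5%. The sum was 106 FPKM in the female pool and 186 FPKM in the male pool. In whole flies more cells of a type and more RNA per cell cannot be told apart, here or in the comparisons that follow.

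**Figure D3:**
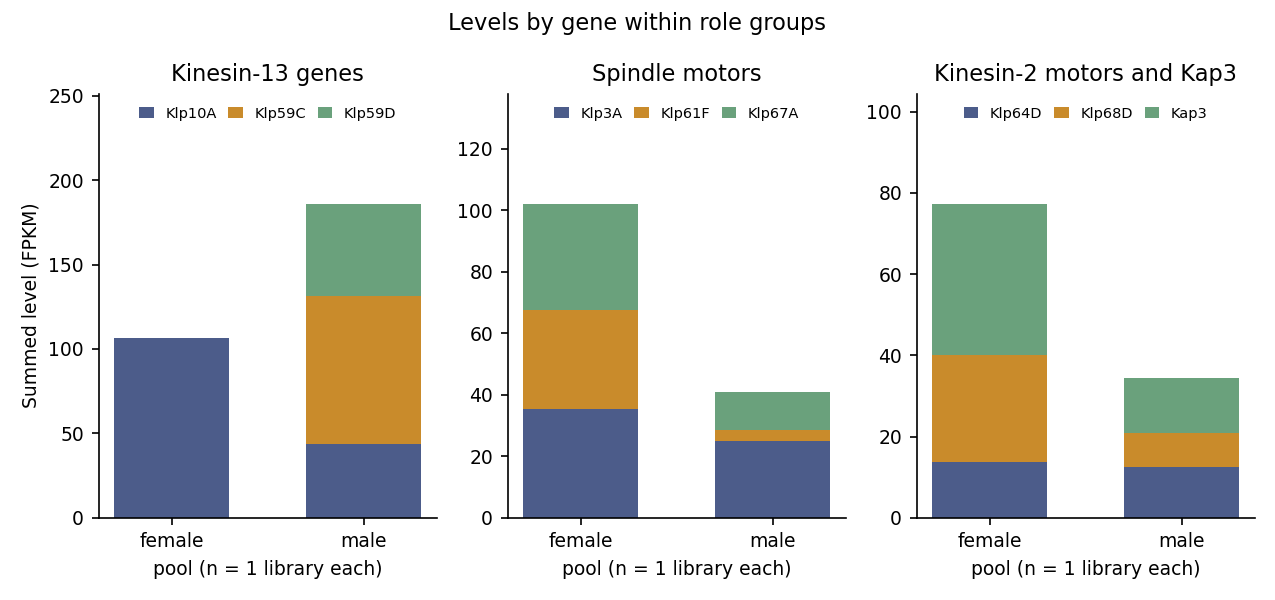
Stacked levels in FPKM of the genes within 3 groups (kinesin-13 genes, spindle motors, and kinesin-2 motors with their partner Kap3) in the female and male pool, 1 library each; each panel has its own y axis, starting at 0. Klp10A fills the female bar of the kinesin-13 genes, Klp61F is the thinnest part of the male spindle motor bar, and Klp64D has nearly the same height in both libraries.

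Klp59C and Klp59D lie close together on chromosome arm 2R of the release 5 assembly (BDGP5), on opposite strands. Klp59C spans 19011517 to 19013565 on the minus strand and Klp59D spans 19029522 to 19032022 on the plus strand, with 15956 nt between them. The 3 genes between them, CG3215, CG30192 and CG13544, had the same pattern. CG3215 was listed at 0 in the female pool and had 29.4 FPKM in the male pool, CG30192 had 0.103 and 99.3 FPKM, and CG13544 had 0.0604 and 53.0 FPKM. The stretch from Klp59C to Klp59D spans 20506 nt. All 3 genes between the pair were called higher in the male pool, where 42% of the loci tested on 2R were. However, the 3 genes passed the minimum of 1 FPKM only through the male pool. A call in that direction was thus nearly fixed in advance, and the count adds nothing to the levels themselves. Outside the stretch, the next annotated gene beyond Klp59D, CG43207, had 1.67 and 5.25 FPKM in the female pool and male pool. The next one on the other side, the gustatory receptor gene Gr59d, was listed at 0 in the female pool and had 0.247 FPKM in the male pool.

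The markers of germ cells moved with these values. Of 10 testis markers 9 were called higher in the male pool, against 40.7% of all loci tested. The summed level of the 10 was 86.8 FPKM in the female pool and 2624 FPKM in the male pool. None was listed at 0 in the female pool, where 67.5 FPKM of the sum came from twe and 14.8 FPKM from bol. The lowest log2 ratios were those of Mst87F (−9.23) and betaTub85D (−8.81), and the highest were those of twe (1.28) and mia (−1.36). The part of germ cell content in the Klp values was not tested. The likeness of Klp59C to other genes was measured as Euclidean distance over the 2 libraries on log2(FPKM + 1). The 3 annotated genes nearest to it were CG11635, CG13700 and CG18266, at distances of 0.011, 0.012 and 0.012, with levels from 87.1 to 88.3 FPKM in the male pool.

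The spindle motors were higher in the female pool by unequal amounts. Klp61F, the kinesin-5 motor that slides antiparallel microtubules to push spindle poles apart, had 32.3 FPKM in the female pool and 3.44 FPKM in the male pool. The linear ratio of female to male was 9.41 (counting interval 8.86 to 10.003), the highest of the 10 genes, and the log2 ratio was 2.91. Of all loci tested, 2.78% had a higher log2 ratio. It remained above 2-fold under each scaling tried, with log2 ratios from 2.05 to 3.35.

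Klp67A, a kinesin-8 motor that limits microtubule growth at plus ends and is needed for spindle length and for the central spindle of meiotic spermatocytes, had 34.6 FPKM in the female pool and 12.5 FPKM in the male pool. Its linear ratio of female to male was 2.76 (counting interval 2.65 to 2.88) and its log2 ratio 1.40. With ribosomal protein genes set equal the log2 ratio was 0.47. Klp3A, a kinesin-4 motor of the central spindle that is needed for cytokinesis in male meiosis, had 35.2 FPKM in the female pool and 25.0 FPKM in the male pool. Its linear ratio was 1.41 (counting interval 1.37 to 1.45), and its log2 ratio of 0.48 was under 2-fold and became −0.46 with ribosomal protein genes set equal. The 3 motors had similar levels in the female pool, where they made up 34.5% (Klp3A), 33.8% (Klp67A) and 31.7% (Klp61F) of their sum. In the male pool Klp3A made up 61.0%, Klp67A 30.6% and Klp61F 8.40%.

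Other genes of the spindle were also mostly higher in the female pool. A list of 37 spindle and kinetochore genes had 36 matched and tested, and 32 of these were called higher in the female pool, against 21.5% of all loci tested. The median log2 ratio of the list was 2.56, against −0.58 over all loci tested. The highest ratio was that of gammaTub37C (log2 ratio 4.51), the gamma-tubulin of the female germline, with 70.4 and 2.14 FPKM in the female pool and male pool. Next was tum (3.74), the GTPase-activating partner of the kinesin pav in cytokinesis, with 84.7 and 5.42 FPKM. The lowest log2 ratio was that of the centrosome gene cnn (−1.17; 38.3 and 87.5 FPKM), the single member called higher in the male pool. The next lowest was SAK (0.22, with 17.4 and 14.8 FPKM), the kinase of centriole duplication. With equal sums 0 members of the list were called higher in the male pool, against 31.6% of all loci. With ribosomal protein genes set equal, 26 of the 36 were called higher in the female pool, against 8.47% of all loci under that scaling.

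The markers of the female germline moved with these values. All 10 were higher in the female pool, 8 of them by at least 2-fold, against 21.5% of all loci tested. Their summed level was 7018 FPKM against 241 FPKM in the male pool, of which dhd alone held 5171 and 66.0 FPKM. The highest log2 ratios were those of dhd (6.27) and osk (5.73), and none was listed at 0. Both markers under 2-fold, orb (148 and 125 FPKM) and grk (19.3 and 14.7 FPKM), had substantial levels in the male pool. The part of female germ cell content in the Klp values was not tested.

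By the same measure of distance, the annotated genes nearest to Klp61F were Corp, zwilch and CG10880, at distances of 0.054, 0.060 and 0.061. Their levels were 33.4 to 33.7 FPKM in the female pool and 3.36 to 3.57 FPKM in the male pool. The product of zwilch belongs to the complex of rod and Zw10 at kinetochores. Over 2 libraries such a distance says only that a gene has the same pair of levels.

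The kinesin-2 motors Klp64D and Klp68D form a trimer with the accessory protein Kap3, which carries cargo in axons and builds the cilia of sensory neurons. Klp64D had 13.8 FPKM in the female pool and 12.6 FPKM in the male pool. Its linear ratio of female to male was 1.10 (counting interval 1.04 to 1.16) and its log2 ratio 0.12, which became −0.044 after centring and −0.78 with ribosomal protein genes set equal. Klp68D had 26.2 FPKM in the female pool and 8.32 FPKM in the male pool, a linear ratio of 3.15 (counting interval 3.00 to 3.32) and a log2 ratio of 1.55. The log2 ratio of Klp68D was 0.64 with ribosomal protein genes set equal.

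The balance between both motors therefore differed between the libraries, in a way that no scaling between them can move. Klp68D stood at 1.90 times the level of Klp64D in the female pool and at 0.662 times in the male pool. Kap3 had 37.4 FPKM in the female pool and 13.5 FPKM in the male pool, a log2 ratio of 1.40, and was the highest of the 3 genes in both libraries. It stood at 1.42 times the level of Klp68D in the female and 1.63 times in the male pool. Kap3 to Klp64D was 2.71 in the female and 1.08 in the male pool. FPKM compares levels between genes per length, and the transcript models set those lengths.

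Genes of intraflagellar transport, the movement along the cilium that kinesin-2 drives, were called about as often as loci in general. Of 15 preset genes 13 were matched and 10 tested. Of these, 2 were called higher in the female pool and 3 in the male pool, against 21.5% and 40.7% of all loci tested. Their median log2 ratio was −0.67, near the −0.58 of all loci tested, and it changed sign to 1.22 with a minimum of 5 FPKM and to 0.99 with 1 FPKM required in both libraries. At the female end were Oseg6 (7.77 and 1.43 FPKM, log2 ratio 1.85) and Oseg1 (17.1 and 6.75 FPKM, log2 ratio 1.22). At the male end were nompB (0.730 and 11.1 FPKM, log2 ratio −2.80) and BBS1 (0.205 and 1.70 FPKM, log2 ratio −1.16). The sum over 6 markers of ciliated sensory neurons was 12.6 FPKM in the female pool and 19.9 FPKM in the male pool, and none was listed at 0. Most of it came from Rfx (9.09 and 5.84 FPKM, log2 ratio 0.56) and tilB (2.28 and 11.2 FPKM, log2 ratio −1.90). The channel genes nan and iav and the gene nompA were below 1 FPKM in both libraries, and nompC had 0.499 and 1.19 FPKM.

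Klp31E and Klp54D were the lowest of the 4 Klp genes that differed by less than 2-fold. Klp31E had 10.2 FPKM in the female pool and 6.85 FPKM in the male pool. Its linear ratio of female to male was 1.49 (counting interval 1.41 to 1.58), and its log2 ratio of 0.52 became −0.35 with ribosomal protein genes set equal. Klp54D had 0.884 FPKM in the female pool and 0.869 FPKM in the male pool, from about 252 and 251 fragments. Its linear ratio was 1.02 (counting interval 0.851 to 1.22). The gene was thus detected in both pools and was left out of the calls by the minimum of 1 FPKM.

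Set among all 27 kinesin genes examined, the Klp genes covered nearly the whole range of ratios. The other 17 kinesin genes were a preset list, and 16 of them were tested. Of these, 9 were called higher in the female pool and 3 in the male pool, against 21.5% and 40.7% of all loci tested, and their median log2 ratio was 1.07. With ribosomal protein genes set equal the calls were 4 and 4 of 17, against 8.47% and 57.0% of all loci. With equal sums they were 10 and 1 of 16, against 31.0% and 31.6%. Klp98A, the Klp gene outside the set of 10, had 23.4 FPKM in the female pool and 15.7 FPKM in the male pool. Its log2 ratio of 0.55 was under 2-fold, reversed to −0.37 with ribosomal protein genes set equal, and was 1.03 with equal sums.

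**Figure D4:**
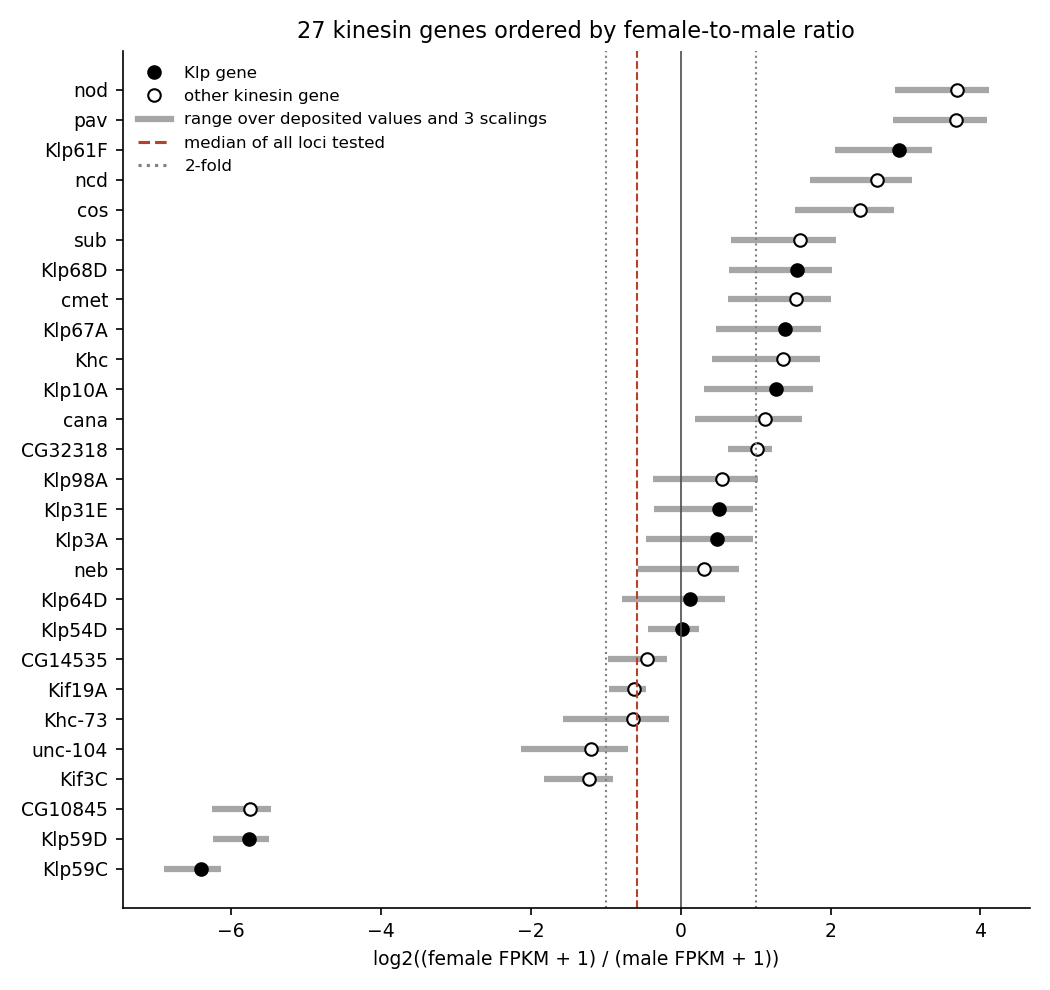
log2 ratio of female to male, log2((FPKM + 1)/(FPKM + 1)), for 27 kinesin genes ordered from high to low; filled points are the 10 Klp genes, open points are other kinesin genes, grey bars span the deposited values and 3 scalings, dotted lines mark 2-fold and the dashed line the median of all loci tested. Klp59C, Klp59D and CG10845 lie below −5 and apart from all others, and the bars of Klp3A, Klp31E, Klp64D and Klp54D cross 0.

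The highest ratios in the family belonged to division motors. The kinesin nod, which holds achiasmate chromosomes on the female meiotic spindle, had 42.6 and 2.39 FPKM in the female pool and male pool (log2 ratio 3.69). The cytokinesis kinesin pav had 43.4 and 2.50 FPKM (3.67). Klp61F came next, ahead of ncd, the minus-end motor of the female meiotic spindle (46.7 and 6.75 FPKM, log2 ratio 2.62). The log2 ratio of cos, a kinesin-like protein of Hedgehog signalling, was 2.40, and that of sub, a motor of the female meiotic spindle, was 1.59. The log2 ratios of the related kinetochore motors cmet and cana were 1.54 and 1.13, and that of Khc, the conventional kinesin heavy chain, was 1.36. Of these genes nod, pav, Klp61F, ncd and cos stayed past 2-fold with ribosomal protein genes set equal.

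The male end of the family held CG10845, unc-104 and Kif3C beside Klp59C and Klp59D. CG10845 had 0.102 FPKM in the female pool and 58.1 FPKM in the male pool, a log2 ratio of −5.74. It lay beside Klp59D both in ratio and in male level, where Klp59C, CG10845 and Klp59D were the 3 highest kinesin genes. The synaptic cargo motor unc-104 had 22.0 and 51.9 FPKM (log2 ratio −1.20), and Kif3C had 0.927 and 3.51 FPKM (−1.23); both were under 2-fold with equal sums, at −0.71 and −0.91. All 6 neuronal markers were also called higher in the male pool, against 40.7% of all loci tested, and none was listed at 0. Their log2 ratios ran from elav (−1.16) and brp (−1.38) to Syt1 (−1.67) and n-syb (−1.83), with a summed level of 69.0 against 231 FPKM. With equal sums 4 of the 6 were called higher in the male pool, against 31.6% of all loci. At 4-fold 0 were, against 20.3%. Of the 6, futsch is also in the list of microtubule dynamics. Of 6 muscle markers 5 were called higher in the male pool, against 40.7% of all loci tested. At 4-fold 2 were, against 20.3%. Their sum was 576 against 1884 FPKM, and none was listed at 0. TpnC4 (−2.36) and Act88F (−2.16) were lowest, and flr (1.96) and Mhc (−1.79) highest. The part of neuron and muscle content in these ratios was not tested.

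The lists of partners and regulators held calls in both directions on the deposited values. Of 7 preset kinesin partners, 1 was called higher in the female pool and 1 in the male pool, against 21.5% and 40.7% of all loci tested. The former was Kap3 and the latter Miro, the mitochondrial adaptor (32.6 and 70.4 FPKM, log2 ratio −1.09). After these came the mitochondrial adaptor milt at the female end (log2 ratio 0.89) and the vesicle adaptor syd at the male end (−0.72). Their median of 0.36 became −0.57 with ribosomal protein genes set equal. Under that scaling 0 were called higher in the female and 2 in the male pool, against 8.47% and 57.0% of all loci. With equal sums 3 and 0 were, against 31.0% and 31.6%. Of 14 genes of microtubule dynamics, 6 were called higher in the female and 4 in the male pool, against 21.5% and 40.7% of all loci tested. Their median of 0.31 became −0.63 with ribosomal protein genes set equal, where the calls were 2 and 5, against 8.47% and 57.0% of all loci. The highest were mei-38 (28.6 and 1.06 FPKM, log2 ratio 3.84) and stai (234 and 55.8 FPKM, log2 ratio 2.05). The lowest were kat-60L1, a katanin-like gene of microtubule severing (0.879 and 46.9 FPKM, log2 ratio −4.67), and tau (10.6 and 44.5 FPKM, log2 ratio −1.97).

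Gene structure set apart 3 of the Klp genes. Klp59C, Klp59D and Klp64D had a single transcript model with a single exon, of 2049, 2501 and 2493 nt. The other 7 had 2 to 5 transcript models, with 2 to 12 exons each. Of the other 17 kinesin genes, CG10845 alone had no intron, and it lies within the span of CG13643. The 3 kinesin genes with the lowest female to male ratio were thus all intronless, and Klp64D, the fourth intronless one, was not called. Among annotated genes tested, 2182 (16.6%) had a single exon, and 55.4% of those were called higher in the male pool, against 39.3% of all annotated genes tested.

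**Figure D5:**
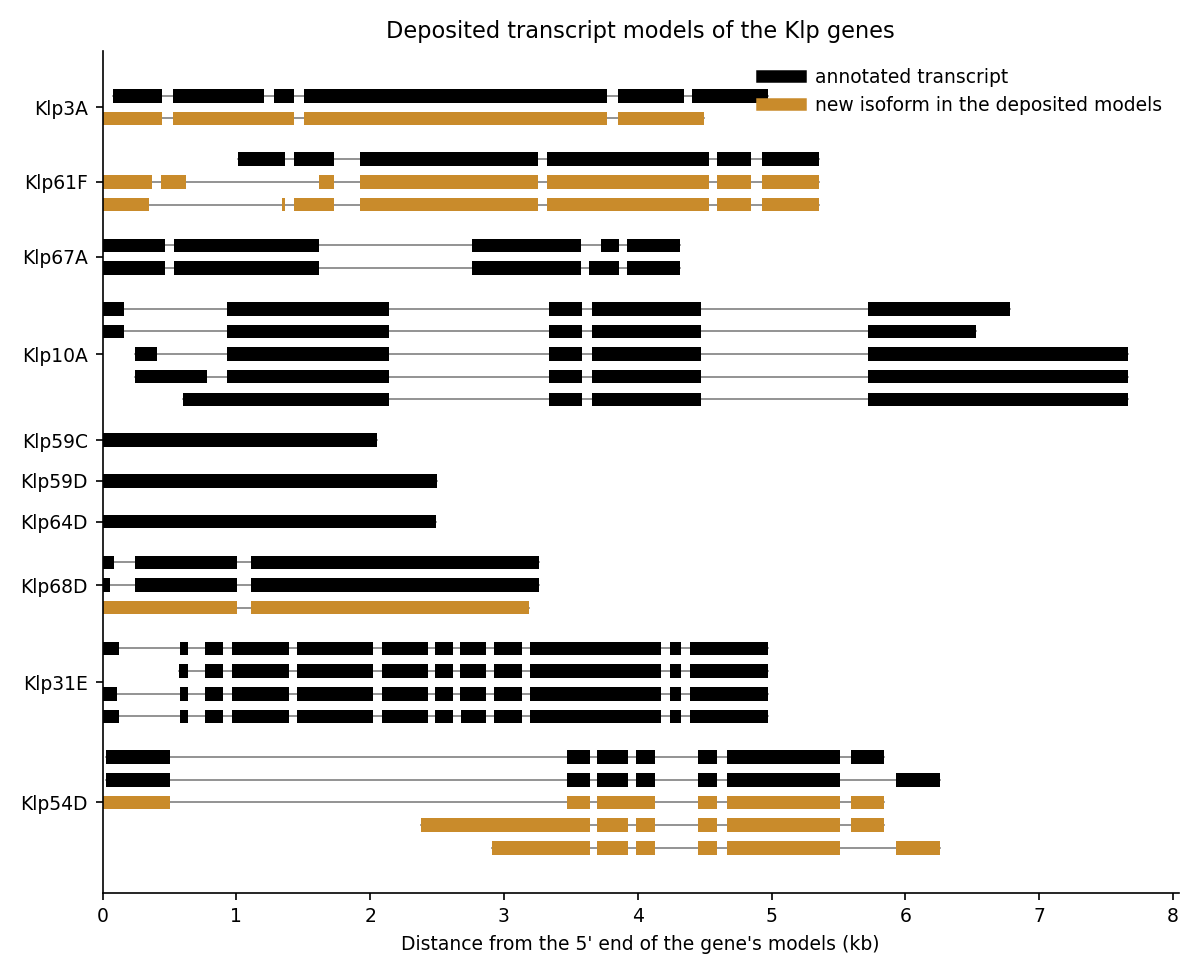
Deposited transcript models of the 10 Klp genes, drawn to scale by distance in kb from the end of each gene at which transcription starts, with boxes for exons and lines for introns; black models are annotated transcripts and ochre models are new isoforms. Klp59C, Klp59D and Klp64D are single boxes, and both ochre models of Klp61F begin about 1 kb before the annotated one.

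The deposited models held 7 new isoforms of the Klp genes, of which 3 belonged to Klp54D, 2 to Klp61F, and 1 each to Klp3A and Klp68D. The annotated transcript of Klp61F runs from 1245910 back to 1241568 on the minus strand of 3L. Both new isoforms start at 1246923, at the start of CG32318, a short gene of the kinesin list on the same strand, whose whole 851 nt span lies inside them. CG32318 had 1.53 FPKM in the female pool and 0.249 FPKM in the male pool (log2 ratio 1.02), the same direction as Klp61F. How fragments were divided between them is uncertain. The 3′ end of Klp61F also overlaps CG9194 (0.627 and 1.63 FPKM) by 458 nt on the opposite strand.

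Klp67A and Klp31E also overlap other genes. CG4447 (22.4 and 9.41 FPKM, log2 ratio 1.17) lies wholly inside the span of Klp67A (3L, 9355736 to 9360051) on the opposite strand, and CG34456 (2.58 and 9.03 FPKM, log2 ratio −1.49) overlaps its end by 99 nt. CG5355 (101 and 69.4 FPKM) shares 234 nt with the start of Klp31E (2L, 10414017 to 10418991) on the opposite strand. The use of strand in counting is not given in the sources used here, so reads in the shared stretches cannot be assigned with certainty.

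The nearest annotated gene on each side of the 6 called Klp genes was compared with them. Beside the Klp genes higher in the female pool, 2 of 8 neighbours were called the same way, against 21.5% of all loci tested: CG18292 beside Klp10A and Psf1 beside Klp61F. Of the 4 genes that overlap Klp61F or Klp67A, CG32318 and CG4447 were also called higher in the female pool. Beside Klp59C and Klp59D, 3 of 4 neighbours (CG3215, CG13544 and CG43207) were called higher in the male pool, against 40.7% of all loci tested. The fourth, Gr59d, was below the minimum and not tested. CG3215 and CG13544 are among the genes between Klp59C and Klp59D already given above, which passed the minimum only through the male pool. Klp10A (X, 11023395 to 11031056) lies between Gtp-bp (50.4 and 32.2 FPKM, log2 ratio 0.63) and CG18292 (31.9 and 7.69 FPKM, log2 ratio 1.92). Psf1, which encodes a subunit of the GINS complex of DNA replication, lies 62 nt from the models of Klp61F and had 14.0 and 4.69 FPKM (log2 ratio 1.40). On the other side of Klp61F, CG9192 was called higher in the male pool (log2 ratio −1.23).

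Klp3A (X, 2493190 to 2498160) and the kinetochore gene mit(1)15, which encodes the fly Zw10 protein, are transcribed away from each other with 69 nt between their models. The log2 ratio of mit(1)15 was 2.68 (62.7 and 8.98 FPKM), against 0.48 for Klp3A, so the members of this divergent pair differed in ratio. On the other side of Klp3A, egh had a log2 ratio of 0.33. Klp31E lies 198 nt before RfC3, a subunit of the replication clamp loader with 40.1 and 6.17 FPKM (log2 ratio 2.52), while RpS27A on its other side had a log2 ratio of 1.10. Klp54D (2R, 13444534 to 13450790) lies between MESR4 (1.85) and CG43324 (−1.60), called in opposite directions.

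On 3L, Klp64D (5349964 to 5352456) has a tRNA gene listed at 0 in both libraries on one side and CG4769 (214 and 381 FPKM, log2 ratio −0.83) on the other. Klp68D (11788714 to 11791975) lies between CG10907 (12.2 and 12.3 FPKM, log2 ratio −0.0092) and CG10361 (2.82 and 8.45 FPKM, log2 ratio −1.31), neither of which shared its higher level in the female pool. The neighbours of Klp67A, CG34455 and CG4452, had log2 ratios of −0.38 and 0.60.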

How the data were processed

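The authors deposited 1 table of FPKM values with a female and a male column, and transcript models in which new isoforms carry Cufflinks as source. Per the submitters' processing notes the tools included TopHat2 2.0.8 and Cufflinks 2.0.2, and the build was BDGP5. Strand use and filters are not given in the sources used here. Library preparation was by TruSeq, per the labels' protocols. The members and gene lists were chosen with earlier results of these data known.

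FPKM values were used as deposited, and computed on with pandas 2.3.3, numpy 2.4.6 and scipy 1.17.1 under Python 3.11.15; figures used matplotlib 3.10.9. A pseudocount of 1 FPKM, a minimum of 1 FPKM in 1 library and a 2-fold threshold were set. With 1 library per sex no test was made. All 10 identifiers carry the same symbols in a current gene table.

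Depth was estimated from a common step in FPKM times length (less 90 nt) over single-transcript loci of at least 1000 nt. A single fragment over 1 kb was worth 0.0129 FPKM in females and 0.0127 FPKM in males, so that 77.5 and 78.7 units of 1e6 fragments divide the counts. Of 383 and 69 checked values, 56.1% and 50.7% lay within 0.15 of a whole number, against 30% by chance, so whole reads were not recovered and no count test was run. Fragment numbers and exact 95% Poisson or binomial (Clopper-Pearson) intervals built on them are approximate. They use the whole exonic length, which overstates the length of genes with several models.

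Named genes were all Klp genes, the 2 highest and 2 lowest tested members of each other list, every other kinesin gene past 2-fold, Kap3, Klp98A, the 3 nearest genes by level to the Klp genes of highest and lowest ratio, and overlapping or adjacent genes. The lists were other kinesins, kinesin partners, spindle and kinetochore, microtubule dynamics, intraflagellar transport, female germline, testis, neuron, ciliated sensory neuron and muscle. Of these lists, Sas-6, Oseg2 and IFT57 were not matched by name.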

Additional observations from a re-analysis of the deposited data

How the results depend on the processing

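The count of Klp genes called higher in the female pool was 4 of 9, against 21.5% of all loci tested. It fell to 1 of 10 (Klp61F) with ribosomal protein genes set to equal medians, against 8.47% of all loci. At a 4-fold threshold it was 1 of 9, against 7.6%. The count called higher in the male pool was 2 under every alternative but 1, against 40.7% of all loci as deposited and 20.3% at 4-fold. Requiring 1 FPKM in both libraries left 0 of 7, against 24.3% of all loci, since Klp59C and Klp59D are below it in the female pool. The same sum, centring, pseudocounts of 0.1 and 5, no filter, a minimum of 5 FPKM and 1.5-fold changed neither count. Over all loci these settings called 15.6% to 31.0% higher in the female pool and 26.4% to 49.8% in the male pool. Equal ribosomal protein medians reversed Klp3A (−0.46), Klp31E (−0.35), Klp64D (−0.78), and the medians of the 10 Klp genes (−0.40), kinesin partners (−0.57) and microtubule dynamics (−0.63). Centring reversed Klp64D (−0.044). Klp54D, below 1 FPKM in both libraries as deposited, went from 0.011 to −0.44 and −0.16 under these scalings. The intraflagellar transport median reversed to 1.22 with a minimum of 5 FPKM and to 0.99 with 1 FPKM in both libraries. The scalings moved all log2 ratios of well-expressed genes by about 0.51 (same sum), −0.97 (ribosomal protein) and −0.17 (centring), and the share of female calls among all calls from 34.6% to 49.5%, 12.9% and 29.3%. With a pseudocount of 0.1 the log2 ratios of Klp59C and Klp59D were −9.17 and −8.66, and with 5 they were −4.20 and −3.57. Without Klp31E, Klp61F and Klp67A, which overlap other genes, kinesin-13 genes made up 58.3% of the Klp sum in females and 79.9% in males, and Klp3A, the spindle motor left, 19.3% and 10.7%; the order of the sexes was kept for both. No paired analysis was possible because each sex has 1 library, and for the same reason no replicate could be left out. Depth limits only Klp59C and Klp59D in the female pool, at about 8 and 7 fragments.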
